A study of Mus musculus with 10 samples.

Results

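The collagen gene family was described in mouse breast tumors grown in wild-type (WT) mice and in mice lacking AGO1 in endothelial cells (ECs). Members were all genes whose symbol consists of Col, a number, a and a number, which gave 44 of the 31053 genes counted. E0771 mouse mammary carcinoma cells were injected into a mammary fat pad of females aged 16 weeks, either EC-AGO1-KO or WT littermates on the C57BL/6 background, and the tumors were taken at day 21. In the KO mice a VE-Cadherin-Cre transgene, driven by the promoter of an endothelial junction gene, acts on floxed AGO1 alleles, so the injected carcinoma cells carry no deletion in either group. Tumors were dissociated with enzymes that included collagenase, and single cells were sequenced with 3' unique molecular identifiers (UMIs) in 10 libraries, 5 per group. The libraries came in batch 1 (1 per group) and batch 2 (4 per group), and 2 of the KO libraries (KO 2+3 and KO 5+6) each pooled 2 tumors, so 5 WT and 7 KO tumors were sampled. Levels are given as CPM, the UMIs of a gene scaled to a fixed total of the library or of a cell class within it.

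Collagens are secreted or membrane proteins built of 3 chains wound into a triple helix. Fibrillar collagens (types I, III and V) form the fibers of stroma and are made mainly by fibroblasts, type IV chains form the sheet-like network of basement membranes under endothelium and epithelium, and type VI chains form beaded filaments around cells. Multiplexins such as type XVIII, the source of endostatin, sit in vascular basement membranes, and fibril-associated types XII and XIV bind the surface of fibers.

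Among the 44 members, 39 had at least 50 UMIs over all kept cells and 13 had at least 1000. The family took 95359 of 61578080 UMIs, or 0.155%, and 10 members took 88.7% of these. Col1a1, the more abundant chain of the type I helix, alone took 26.0%. The 5 members under 50 UMIs were Col9a2 (10 UMIs), Col10a1 (11), Col11a2 (14), Col8a2 (32) and Col9a1 (42), which belong mostly to cartilage and cornea types.

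Libraries held 8323896 to 10591577 UMIs. The 65298 kept cells had a median of 4049 and 3862 UMIs in the batch 1 WT and KO libraries but 595 to 1142 in batch 2, so the batches differed in depth per cell. Libraries shared at most 0.503% of the smaller library's cell barcodes. Ago1 itself could not be checked where it was deleted: endothelial-like cells held 0 UMIs of Ago1 in WT, which allows a level of up to 40.6 CPM, and 0 in KO, which allows up to 28.5 CPM. Over all cells the WT and KO levels of Ago1 were 5.79 and 6.32 CPM.

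The start regions of the type IV genes Col4a1, Col4a2, Col4a5 and Col4a6 are shown because these neighboring pairs recur in the levels given below. Whether the regions set these levels was not tested. The start regions were taken from RefSeq (GRCm38.p6) and run from 250 bases before to 50 bases after each start. Col4a1 (chr8:11312777-11313076, minus strand) and Col4a2 (chr8:11312555-11312854, plus strand) start 21 bases apart on opposite strands and their windows share 78 bases (chr8:11312777-11312854). Col4a5 (chrX:141475169-141475468, plus strand) and Col4a6 (chrX:141474027-141474326, minus strand) also face away from each other, with starts 1343 bases apart. Capitals mark the GC box GGGCGG, the CCAAT box CCAAT and the TATA box TATAAA on either strand, and the sequences read:
Col4a1: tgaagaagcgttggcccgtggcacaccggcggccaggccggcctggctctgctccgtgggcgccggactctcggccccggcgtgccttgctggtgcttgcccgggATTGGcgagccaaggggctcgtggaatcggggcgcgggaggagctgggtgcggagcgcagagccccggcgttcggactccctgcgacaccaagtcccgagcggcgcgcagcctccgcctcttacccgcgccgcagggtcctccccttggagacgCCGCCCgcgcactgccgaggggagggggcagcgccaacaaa
Col4a2: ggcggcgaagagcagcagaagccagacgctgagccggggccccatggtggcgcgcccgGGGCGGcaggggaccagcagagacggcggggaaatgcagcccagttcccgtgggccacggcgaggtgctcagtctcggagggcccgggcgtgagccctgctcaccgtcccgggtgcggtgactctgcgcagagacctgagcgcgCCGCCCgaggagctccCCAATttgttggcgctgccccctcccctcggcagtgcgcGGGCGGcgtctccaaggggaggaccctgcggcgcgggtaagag
Col4a5: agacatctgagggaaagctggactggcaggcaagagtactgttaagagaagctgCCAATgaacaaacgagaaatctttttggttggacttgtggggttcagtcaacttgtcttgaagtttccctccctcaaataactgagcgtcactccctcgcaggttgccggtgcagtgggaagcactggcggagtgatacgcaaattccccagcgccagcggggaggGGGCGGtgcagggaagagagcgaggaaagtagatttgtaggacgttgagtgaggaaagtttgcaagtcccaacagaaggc
Col4a6: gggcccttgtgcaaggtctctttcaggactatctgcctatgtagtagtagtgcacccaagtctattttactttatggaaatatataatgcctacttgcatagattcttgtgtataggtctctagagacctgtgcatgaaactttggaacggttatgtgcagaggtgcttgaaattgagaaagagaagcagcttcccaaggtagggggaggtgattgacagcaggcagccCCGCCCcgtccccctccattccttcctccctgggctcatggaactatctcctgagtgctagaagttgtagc

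The Col4a1 and Col4a2 windows were 74% and 73.7% G and C, against a median of 52.7% over all promoters. A GC box was found in 23 of 38 collagen promoters, which cover 35 of the 44 members, against 35.7% of 32851 promoters. The CCAAT box was found in 13 and the TATA box in 5 of these 38, against 37.4% and 13.6% of all. Neighboring pairs occur elsewhere in the family: Col4a3 and Col4a4 lie 71 bases apart, Col3a1 and Col5a2 24614 bases apart, and Col6a2 and Col6a1 85161 bases apart.

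Argonaute proteins hold microRNAs, and the miR-29 family is known for its target sites in collagen mRNAs, so its sequences and sites are shown. The mature sequences below are from RefSeq, with the seed (bases 2 to 8, shared by all 3) in capitals. The microRNAs themselves were not measured here.
mmu-miR-29a-3p: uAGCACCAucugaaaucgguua
mmu-miR-29b-3p: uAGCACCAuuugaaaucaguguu
mmu-miR-29c-3p: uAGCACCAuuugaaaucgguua

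The complement of the seed, TGGTGCT, was looked for in the longest annotated 3' untranslated region of each gene (GENCODE vM21, GRCm38). At least 1 match was present in 25 of 44 collagens (56.8%) against 13.1% of 21004 genes, at similar median lengths of 1032 and 953 bases. The first matches, with capitals marking the 7 bases, are given for 4 members: Col1a1 at chr11:94952530-94952552 (plus strand), Col3a1 at chr1:45348974-45348996 (plus strand), Col4a1 at chr8:11199754-11199776 (minus strand) and Col5a3 at chr9:20770773-20770795 (minus strand).
Col1a1: ggaatttcTGGTGCTatagaagc
Col3a1: tgtctcaaTGGTGCTataataaa
Col4a1: tcacaacaTGGTGCTactccccc
Col5a3: gggctcctTGGTGCTgaggctct

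Cells were grouped without using any collagen gene. The classes comprised 48201 tumor-like cells, 591 fibroblast-like, 336 pericyte-like, 243 endothelial-like, 2431 myeloid-like, 2207 T-like, 552 B-like, 187 dendritic-like and 456 epithelial-like cells, and 10094 cells stayed unnamed. Each stromal class carried its own markers: over libraries the median summed level of the 12 fibroblast markers was 1882 CPM in fibroblast-like cells and 106 CPM in tumor-like cells, the 12 pericyte markers stood at 6257 CPM in pericyte-like and 199 CPM in fibroblast-like cells, and the 12 endothelial markers at 2124 CPM in endothelial-like cells and 31.0 CPM in tumor-like cells. Tumor markers were nevertheless found in every class. Among the 8 tumor markers, Vim and Aebp1 are also made by fibroblasts, so the summed level is not a measure of tumor RNA alone. The 8 together stood at 20164 CPM in tumor-like cells but also at 11401, 13529 and 14536 CPM in fibroblast-like, pericyte-like and endothelial-like cells. For this reason the level in barcodes with at most 50 UMIs, which hold free RNA rather than a cell, is given beside class levels. A level above these low barcodes does not by itself place a gene in a class. In B-like and T-like cells, 7 and 2 members were above them, for instance Col6a3 at 145 and 75.5 against 66.9 CPM. Tumor markers stood at 17674 and 13723 CPM in these 2 classes, and the part of mixed-in tumor RNA was not tested.

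Among the classes taken from clusters, fibroblast-like cells had the highest summed collagen level. Pooled over all libraries their collagens summed to 49600 CPM, against 12109 CPM in pericyte-like, 3609 CPM in endothelial-like, 1744 CPM in epithelial-like, 1188 CPM in tumor-like and 145 CPM in myeloid-like cells. By number of UMIs the order was another: tumor-like cells, the most numerous class, held 63.1% of the family's UMIs, fibroblast-like cells 24.2%, pericyte-like cells 2.58% and endothelial-like cells 0.678%. Over libraries with at least 10 cells of a class, the median sum was 54578 CPM in fibroblast-like, 11422 CPM in pericyte-like, 2160 CPM in endothelial-like, 1508 CPM in epithelial-like, 1177 CPM in tumor-like and 462 CPM in myeloid-like cells. With cells classed by their own markers (at least 3 markers with a UMI), the sum was 21115 CPM in fibroblast-like and 30742 CPM in pericyte-like cells. Only the batch 1 libraries held 10 such fibroblast-like cells (21 in WT and 15 in KO). Only KO 5+6 held 10 such pericyte-like cells (14). No library entered both values, so the order of the first 2 classes could not be compared this way. Class levels are a description with no test, and low barcodes in batch 2 held collagens at 1740 to 2691 CPM.

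**Figure D1:**
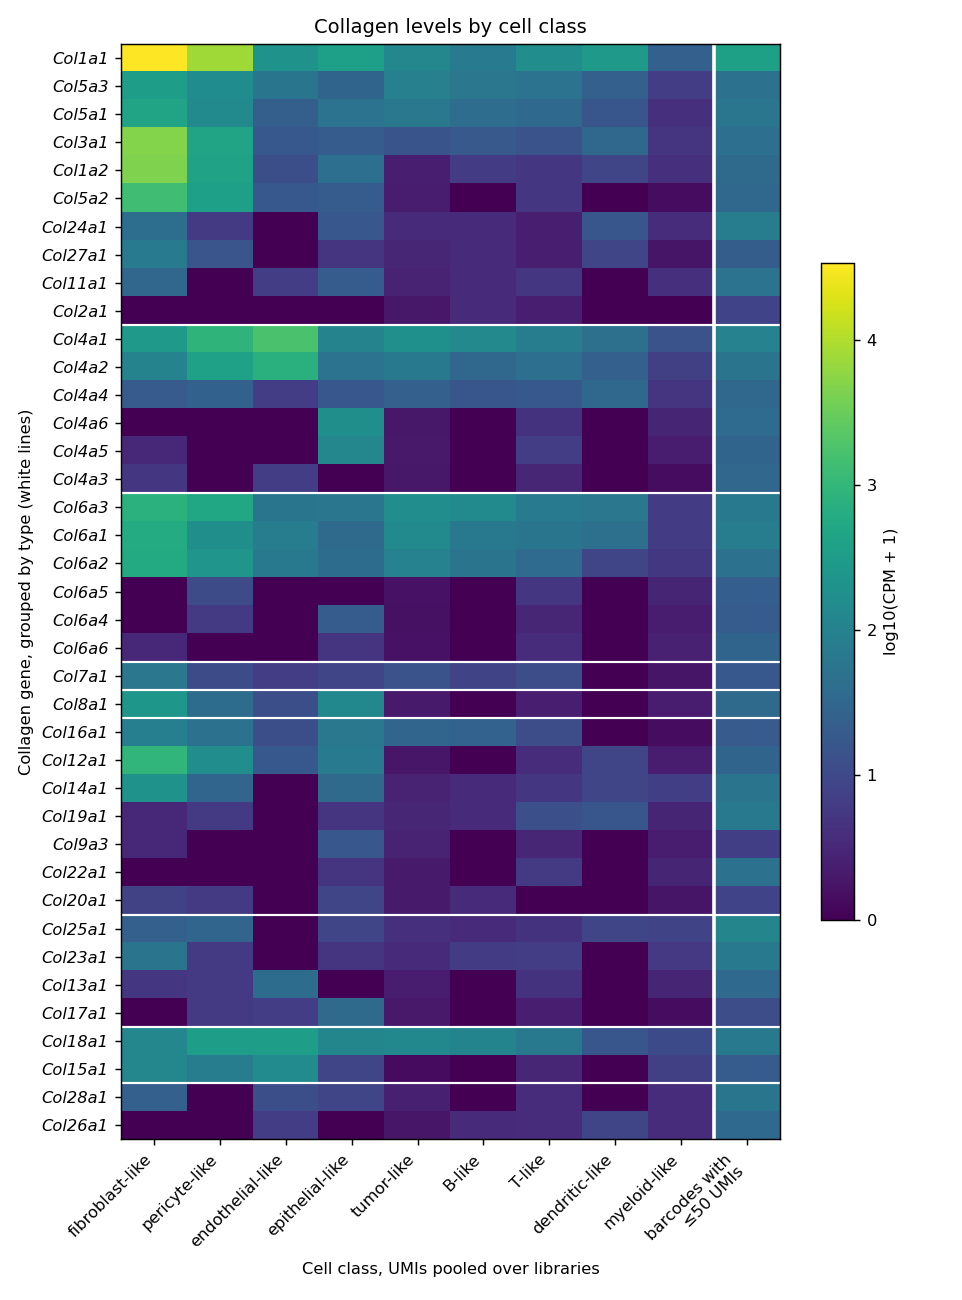
Heat map of the pooled level of the 39 collagens with at least 50 UMIs (rows) in each cell class and in barcodes with at most 50 UMIs (columns), colored by log10 of CPM plus 1. The brightest fields are Col1a1 in fibroblast-like and pericyte-like cells (33695 and 7560 CPM) and Col3a1 and Col1a2 in fibroblast-like cells (4906 and 4429 CPM). Batch 1 gave 1642 of the 2284 Col3a1 and 1277 of the 2062 Col1a2 UMIs of fibroblast-like cells. Col4a1 and Col4a2 peak in endothelial-like cells.

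Of the 39 members, 19 had their highest pooled level in fibroblast-like cells, 7 in epithelial-like, 5 in endothelial-like, 3 in pericyte-like, 3 in dendritic-like, 1 in T-like and 1 in B-like cells, and none in tumor-like or myeloid-like cells. For 26 of the 39 this highest level was above that of low barcodes (15 of the fibroblast-led, 6 of the epithelial-led, 4 of the endothelial-led and 1 of the pericyte-led members). The other 13 were Col2a1, Col4a3, Col4a4, Col6a5, Col6a6, Col11a1, Col19a1, Col22a1, Col23a1, Col24a1, Col25a1, Col26a1 and Col28a1, and their highest class level was below that of low barcodes. Within them Col23a1 and Col24a1 were still higher in fibroblast-like than in tumor-like cells in 8 of 9 libraries each. Over all kept cells these 13 stood, in that order, at 0.909, 1.06, 22.7, 0.974, 0.909, 2.61, 2.79, 1.51, 3.52, 3.39, 4.38, 1.17 and 2.09 CPM.

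Type I and III chains were highest in the fibroblast-like clusters. Col1a1 ranged over 9 libraries from 22057 to 52538 CPM (median 35857) in fibroblast-like cells, from 5146 to 14006 CPM (median 7882, 8 libraries) in pericyte-like cells and from 14.4 to 281 CPM (median 112, 10 libraries) in tumor-like cells, where it lay under the 372 CPM of low barcodes. The ranges of these classes did not overlap. With cells classed by their own markers, Col1a1 stood at 7539 CPM in fibroblast-like cells (batch 1 libraries only) and 21135 CPM in pericyte-like cells (KO 5+6 only). No library entered both values, so they give no order. Col1a2, the partner chain of type I collagen, had a median of 2846 CPM in fibroblast-like, 208 CPM in pericyte-like and 1.30 CPM in tumor-like cells. Col3a1, which co-assembles with type I in extensible tissue, had medians of 2273, 372 and 14.5 CPM in the same order. In the clusters all 3 genes were higher in fibroblast-like than in pericyte-like cells in 8 of 8 libraries and higher than in tumor-like cells in 9 of 9.

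Col5a2 and Col12a1 were also low in tumor-like cells. Col5a2, a fibril-nucleating chain, stood at a median of 860 CPM in fibroblast-like and 369 CPM in pericyte-like cells but at 1.18 CPM in tumor-like cells. Col12a1, a fibril-surface collagen, stood at 930, 140 and 1.07 CPM. In epithelial-like cells its pooled level was 71.2 CPM (18 UMIs), above the 27.6 CPM of low barcodes. Fibroblast-like cells held 78.9% of all Col5a2 UMIs and 77.2% of all Col12a1 UMIs, as well as 90.7% for Col1a2, 70.5% for Col3a1 and 63.3% for Col1a1. In this order the shares were 96.2%, 97.0%, 97.3%, 87.2% and 89.9% in batch 1. In batch 2 they were lower, at 64.3%, 69.1%, 81.7%, 47.3% and 59.7%, and tumor-like cells held 37.2% of the Col3a1 UMIs. Col8a1, a short-chain collagen of vessel walls, and Col14a1, a fibril-associated collagen, had pooled levels of 247 and 206 CPM in fibroblast-like cells and 1.13 and 1.86 CPM in tumor-like cells. Pooled Col8a1 also reached 127 CPM in epithelial-like cells, from 32 UMIs. Col27a1, a fibrillar collagen, and Col7a1, which forms anchoring fibrils under the skin epithelium, were lower, at pooled levels of 68.7 and 60.1 CPM in fibroblast-like cells against 21.1 and 16.7 CPM in low barcodes.

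Basement membrane collagen IV was highest in vascular classes. Col4a1 ranged from 358 to 1188 CPM (median 741) in endothelial-like cells, from 564 to 1143 CPM (median 771) in pericyte-like cells and from 149 to 238 CPM (median 177) in tumor-like cells. Endothelial-like and pericyte-like cells each exceeded tumor-like cells in 8 of 8 libraries, but they did not separate from each other, with endothelial-like cells higher in 3 of 8. Col4a2 had medians of 274, 261 and 65.1 CPM in these classes, with the same counts of 8 of 8 and 3 of 8. Pooled over all libraries the endothelial-like levels were higher, at 1713 CPM for Col4a1 and 742 CPM for Col4a2, and 208 of 307 and 98 of 133 of these UMIs came from the few, deeply sequenced batch 1 cells. Col18a1 stood at a median of 389 CPM in pericyte-like, 261 CPM in endothelial-like and 131 CPM in tumor-like cells. Col15a1, the other multiplexin, had a pooled level of 151 CPM in endothelial-like cells (27 UMIs) and 125 CPM in fibroblast-like cells (58 UMIs). Within libraries its endothelial-like level was above the fibroblast-like one in 1 of 8 and below it in 6. Endothelial-like cells held 29.5% of Col15a1 UMIs in batch 1 and 5.56% in batch 2. Col13a1, a membrane collagen, led in endothelial-like cells with 39.0 CPM from 7 UMIs, beside 33.7 CPM in low barcodes.

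Part of the family stood above low barcodes in tumor-like cells, though each of these members had a higher pooled level in pericyte-like cells. Col4a1, for instance, stood at 885 CPM in pericyte-like and 185 CPM in tumor-like cells, and Col16a1 at 49.2 and 29.2 CPM. In 9 members (Col4a1, Col4a2, Col5a1, Col5a3, Col6a1, Col6a2, Col6a3, Col16a1 and Col18a1) the pooled tumor-like level was above that of low barcodes. Examples were 162 against 66.9 CPM for Col6a3, 92.2 against 48.9 CPM for Col5a3 and 29.2 against 19.3 CPM for Col16a1. Over all kept cells of single batch 2 libraries, not every member stood above the low barcodes of its library. Col5a1 was below them in WT 3 (56.9 against 72.8 CPM), WT 5, KO 2+3 and KO 4. Col4a2 was below in WT 3, KO 1 and KO 5+6, Col16a1 in WT 5 and KO 4, and Col6a1 in WT 5. The other members of the 9 were above in each batch 2 library. For chains of type VI the fibroblast-like level was higher than the tumor-like one. Medians were 445 against 156 CPM for Col6a3 and 259 against 93.0 CPM for Col6a2, with the same order in 9 of 9 libraries each. Type V chains were unequal: pooled Col5a1 and Col5a3 stood at 64.7 and 92.2 CPM in tumor-like cells while Col5a2 stood at 1.20 CPM, although in fibroblast-like cells Col5a2 was the most abundant of these chains by UMIs, at 1366 CPM against 445 and 331 CPM.

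Epithelial-like cells had the highest pooled level of the other type IV pair and of Col17a1, a hemidesmosome collagen, but not most of their UMIs. Col4a5 and Col4a6 had pooled levels of 123 and 182 CPM in epithelial-like cells, 28.1 and 37.1 CPM in low barcodes and 1.05 and 0.948 CPM in tumor-like cells. Col4a5 was higher in epithelial-like than in tumor-like cells in 7 of 7 libraries and Col4a6 in 6 of 7. Epithelial-like cells held 31 of 117 Col4a5 and 46 of 128 Col4a6 UMIs, and 187 of these 456 cells lay in KO 1. No UMI of Col4a5 or Col4a6 was found in pericyte-like or endothelial-like cells, which allows up to 14.8 and 16.7 CPM. Col17a1 stood at 35.6 CPM in epithelial-like cells, from 9 of its 80 UMIs, while tumor-like cells held 52. Its epithelial-like level was above the tumor-like one in 5 of 7 libraries. Col6a4, Col9a3 and Col20a1 also led in epithelial-like cells, but with 5, 4 and 2 UMIs (19.8, 15.8 and 7.91 CPM) no order among classes can be read.

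Partner chains kept their ratio across batches for Col4a1 and Col4a2 but not for type I, and pairs of type V and VI also moved. The ratio of Col4a1 to Col4a2 UMIs was 2.76 in batch 1 and 2.64 in batch 2 over all kept cells, and 2.87 and 2.67 within tumor-like cells. The ratio of Col1a1 to Col1a2 UMIs was 2.25 in batch 1 and 22.7 in batch 2 over all cells, and 2.07 and 16.6 within fibroblast-like cells, where single libraries ranged from 2.02 to 2.11 and from 10.0 to 32.6. Col6a3 to Col6a1 went from 0.392 in batch 1 to 1.62 in batch 2 over all cells, and from 0.345 to 1.59 within tumor-like cells. Over all cells Col6a1 to Col6a2 went from 1.79 to 1.29 and Col5a1 to Col5a2 from 2.05 to 7.42. Within fibroblast-like cells Col5a1 to Col5a2 was 0.321 and 0.331. Batch and depth per cell cannot be told apart here, and a 3' UMI count is not a count of chains. Ratios of type I chains, and of type V and VI chains over all cells, are therefore not comparable between batches, while both groups are present in each.

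WT and KO tumors were then compared to ask whether the loss of endothelial AGO1 came with a change in any collagen. In whole libraries no collagen passed the test: 0 of 29 members tested had an adjusted p below 0.05 (edgeR quasi-likelihood test with batch as covariate and Benjamini-Hochberg adjustment), as did 0% of 12450 genes. At an unadjusted p below 0.05 there were 3 of 29 members (Col4a5, Col28a1 and Col5a3) against 8.85% of all genes, and DESeq2 called no member in this or any comparison below. The median log2 difference, KO minus WT, was 0.05 over the members and -0.00 over all genes, with 15 members higher and 14 lower. In bulk sums, fewer cells of a type and less RNA per cell cannot be told apart.

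The summed level was close in both groups. All collagens together stood at 1583, 1850, 1455 and 1552 CPM in WT libraries 1, 3, 4 and 5 and at 1330, 1702, 1501 and 1495 CPM in KO libraries 1, 2+3, 4 and 5+6. The groups overlapped, and the WT mean was 1610 ± 169 CPM (SD, n = 4) beside a KO mean of 1507 ± 152 CPM (SD, n = 4). In batch 1 the WT and KO sums were 1650 and 1385 CPM. Without Col1a1 the batch 2 means were 1109 ± 73.0 and 1087 ± 35.5 CPM.

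Among the stromal fibrillar chains, values varied between tumors more than between groups. Col1a1 stood at 376, 799, 333 and 497 CPM in WT libraries 1, 3, 4 and 5, at 278, 619, 425 and 359 CPM in KO libraries 1, 2+3, 4 and 5+6, and at 247 and 179 CPM in WT and KO of batch 1. Its log2 difference was -0.36 (SE 0.23, edgeR adjusted p = 0.683), and the groups overlapped. Col3a1 stood at 29.1, 41.8, 26.9 and 27.1 CPM in these WT libraries, at 22.3, 40.7, 18.0 and 22.1 CPM in KO, and at 161 and 110 CPM in batch 1. It differed by -0.40 (SE 0.20, edgeR adjusted p = 0.575), with the KO 2+3 library near the highest WT one. Col1a2 stood at 6.88, 38.8, 19.8 and 22.7 CPM in WT and at 14.1, 19.6, 20.6 and 21.6 CPM in KO, and at 111 and 77.9 CPM in batch 1. Its log2 difference of -0.34 (SE 0.29) lay within the spread of the WT libraries.

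The type V chains had differences of opposite sign. Col5a3, the rarer partner of Col5a1 and Col5a2 in type V helices, stood at 85.6, 68.5, 65.6 and 72.6 CPM in WT and at 79.9, 102, 99.6 and 106 CPM in KO, with 98.7 and 97.2 CPM in batch 1. It was higher in 3 of 4 batch 2 KO libraries than in any WT one, by a log2 difference of 0.26 (SE 0.12, edgeR adjusted p = 0.559). Col5a1 stood at 68.4, 56.9, 99.3 and 59.8 CPM in WT, at 66.6, 63.7, 54.9 and 74.6 CPM in KO and at 59.7 and 49.9 CPM in batch 1, a log2 difference of -0.23 (SE 0.16) within overlapping groups.

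Col4a1, Col4a2 and Col18a1, the most abundant basement membrane members, had negative differences that did not pass the test. Col4a1 stood at 213, 151, 180 and 176 CPM in WT, at 152, 168, 161 and 163 CPM in KO, and at 216 and 205 CPM in batch 1. Col4a2 stood at 79.0, 64.4, 62.2 and 67.1 CPM in WT, at 55.2, 66.1, 65.2 and 59.3 CPM in KO and at 78.2 and 74.1 CPM in batch 1. The pair, whose start regions are printed above, had like log2 differences of -0.21 (SE 0.10) and -0.20 (SE 0.11), with edgeR adjusted p-values of 0.586 and 0.601. Col18a1 stood at 138, 139, 129 and 159 CPM in WT, at 108, 106, 140 and 154 CPM in KO and at 95.1 and 76.4 CPM in batch 1. Its log2 difference was -0.25 (SE 0.12, edgeR adjusted p = 0.564), with both groups overlapping.

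Type VI chains did not move as a group. Col6a1 stood at 118, 113, 101 and 79.5 CPM in WT, at 128, 129, 104 and 123 CPM in KO and at 252 and 212 CPM in batch 1. Col6a2 stood at 91.3, 82.6, 93.7 and 62.0 CPM in WT, at 109, 98.9, 76.1 and 81.9 CPM in KO and at 131 and 128 CPM in batch 1. Their log2 differences of 0.07 (SE 0.13) and 0.05 (SE 0.14) were under their standard errors. Col6a3, the long chain whose end is cleaved to endotrophin, stood at 258, 145, 179 and 189 CPM in WT, at 136, 146, 202 and 160 CPM in KO and at 96.7 and 85.0 CPM in batch 1, a log2 difference of -0.31 (SE 0.15, edgeR adjusted p = 0.564).

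**Figure D2:**
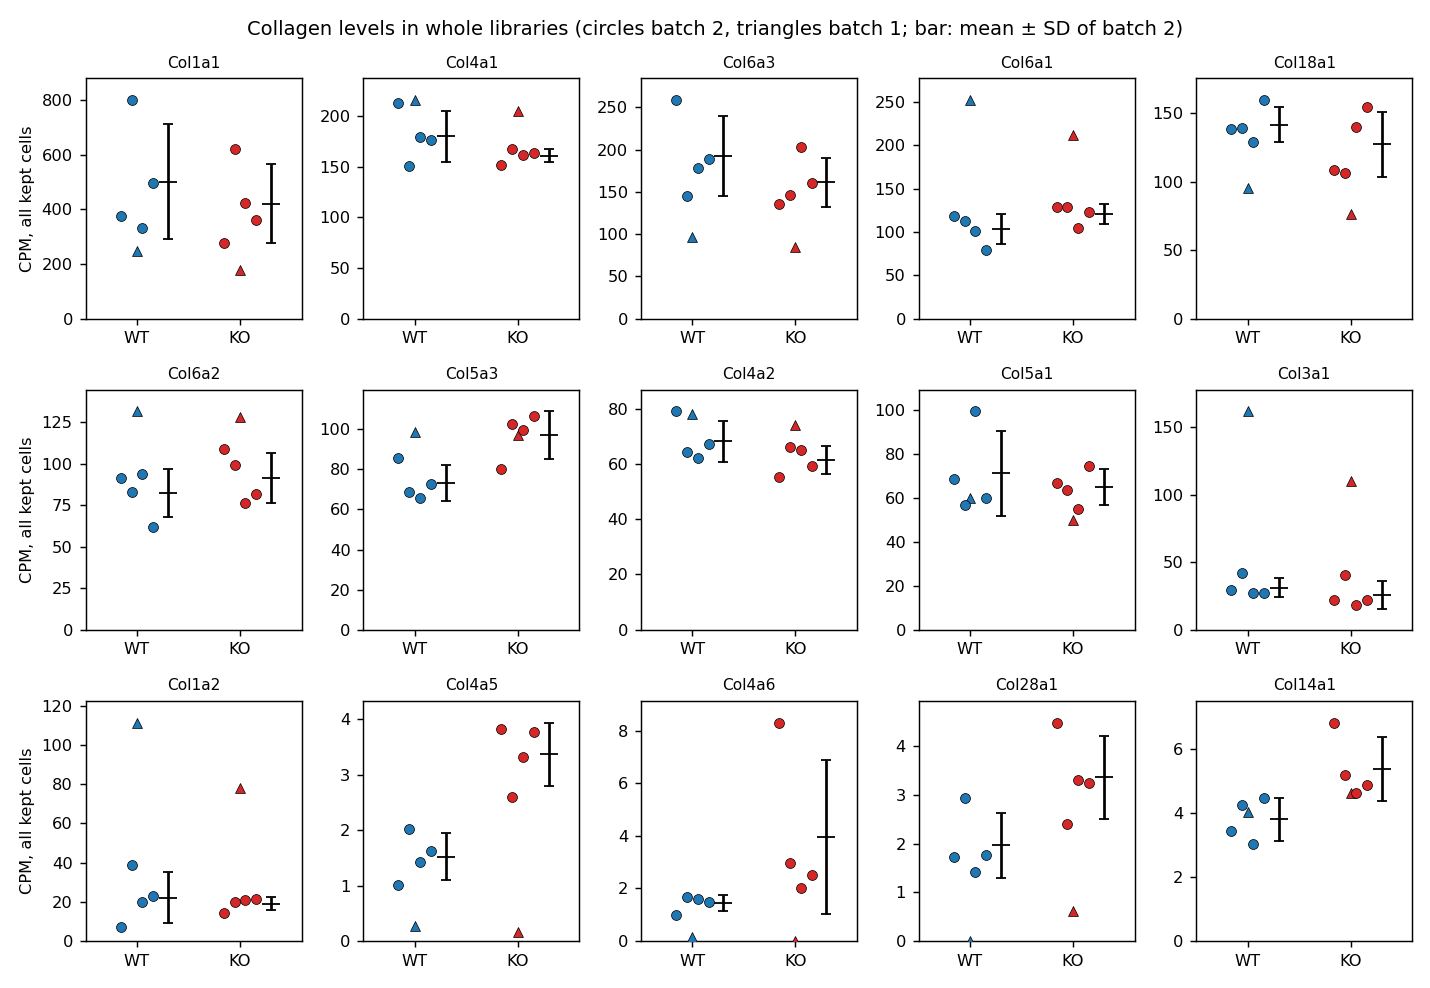
Level of 15 collagens in all kept cells of each library, in CPM, with circles for batch 2, triangles for batch 1 and a bar for the batch 2 mean ± SD (n = 4 per group). WT and KO overlap in batch 2 in all panels but Col4a5, Col4a6 and Col14a1. Both batch 1 libraries lie above all of batch 2 for Col1a2, Col3a1, Col6a1 and Col6a2. They lie below all of batch 2 for Col1a1, Col6a3, Col18a1, Col4a5, Col4a6 and Col28a1.

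Groups that did not overlap in batch 2 were few. Every KO library was higher than every WT library for 2 of the 29 members tested (Col4a5 and Col14a1), against 3.82% of all genes tested, and every KO library was lower for 0 members, against 0.586%. Col4a5 stood at 1.00, 2.02, 1.43 and 1.62 CPM in WT and at 3.82, 2.59, 3.31 and 3.77 CPM in KO, from 117 UMIs in all, and at 0.277 and 0.153 CPM in batch 1. Its log2 difference was 1.01 (SE 0.30, edgeR adjusted p = 0.459). The batch 1 libraries, with 3 of these UMIs, did not show it. In low barcodes Col4a5 moved the same way, at 12.0, 38.4, 22.6 and 20.6 CPM in WT and 42.3, 43.2, 36.6 and 48.1 CPM in KO. Col14a1 stood at 3.44, 4.23, 3.03 and 4.45 CPM in WT and at 6.81, 5.19, 4.60 and 4.85 CPM in KO, and at 4.02 and 4.60 CPM in batch 1, a log2 difference of 0.37 (SE 0.21, edgeR adjusted p = 0.614). In low barcodes Col14a1 was at 39.2, 64.4, 31.4 and 39.7 CPM in WT and at 83.9, 51.1, 92.4 and 92.2 CPM in KO. The part of free RNA in either difference was not tested. Col28a1, in contrast, overlapped: it stood at 1.72, 2.95, 1.43 and 1.75 CPM in WT and at 4.49, 2.41, 3.31 and 3.23 CPM in KO, and at 0 and 0.614 CPM in batch 1. Its class levels were under those of low barcodes.

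Col4a6, the neighbor of Col4a5, was too rare for the low-count filter. It stood at 1.00, 1.66, 1.6 and 1.48 CPM in WT, at 8.31, 2.96, 2.03 and 2.52 CPM in KO and at 0.139 and 0 CPM in batch 1, so it did not overlap in batch 2 either. Without the filter, where 242 of 27390 genes were called, it was the collagen called (log2 difference 1.28, SE 0.36, edgeR adjusted p = 0.0434). Epithelial-like cells, 187 of 456 of which lay in the KO 1 library, moved with this value: without them the log2 difference was 0.81 (adjusted p = 0.616), and without KO 1 it was 0.62 (adjusted p = 0.858). Col4a5 without epithelial-like cells differed by 0.72.

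Within tumor-like cells 0 of 21 members passed, against 0% of 11315 genes (edgeR, adjusted p below 0.05). At an unadjusted p below 0.05 there were 2 of 21 (Col5a3 and Col14a1), against 5.17% of all genes. Col5a3 stood at 87.9, 68.1, 66.3 and 71.8 CPM in WT and at 84.3, 110, 103 and 108 CPM in KO, and at 108 and 118 CPM in batch 1, which gave a log2 difference of 0.35 (SE 0.12, edgeR adjusted p = 0.897). The groups overlapped through WT 1 and KO 1. Col14a1 stood at 1.43, 1.76, 0.851 and 2.18 CPM in WT and at 3.16, 2.57, 3.36 and 3.47 CPM in KO, and at 0.169 and 0.198 CPM in batch 1, a log2 difference of 0.91 (SE 0.31, edgeR adjusted p = 0.897). Col14a1 was the 1 of 21 members whose batch 2 KO libraries were all higher, against 2.59% of genes, and 0 were all lower, against 0.663%. Its level in tumor-like cells was below the 53.4 CPM of low barcodes, whose own values by group are given above. Col1a1 in tumor-like cells, also below low barcodes, stood at 187, 278, 163 and 116 CPM in WT and at 107, 281, 61.3 and 38.2 CPM in KO, and at 14.4 and 30.3 CPM in batch 1.

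Fibroblast-like cells could be compared in 5 WT and 4 KO libraries, since the batch 1 KO library held 9 of them, and batch 1 WT then carried no contrast. No member passed (0 of 9 tested, against 0% of 929 genes), and 1 of 9 (Col6a2) had an unadjusted p below 0.05, against 4.41% of genes. Col1a1 stood at 25428, 48126, 35857 and 44648 CPM in WT and at 27409, 50242, 52538 and 34297 CPM in KO, a log2 difference of 0.13 (SE 0.35). The spread among tumors of either group was thus wider than the difference. Col1a2 stood at 779, 3286, 3577 and 2474 CPM in WT and at 1882, 2846, 2880 and 2082 CPM in KO (log2 difference -0.02, SE 0.36). Col3a1 stood at 1247, 2414, 2273 and 2408 CPM in WT and at 1745, 2549, 1642 and 1487 CPM in KO (log2 difference -0.14, SE 0.30). Both pairs of groups overlapped. Col5a3 stood at 134, 145, 126 and 299 CPM in WT and at 171, 415, 288 and 223 CPM in KO (log2 difference 0.59, SE 0.38, edgeR adjusted p = 0.996). Col6a3 stood at 445, 345, 210 and 482 CPM in WT and at 342, 652, 403 and 471 CPM in KO (log2 difference 0.32, SE 0.31). Neither separated the groups.

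Among the 9 members tested in fibroblast-like cells, Col6a2 was the 1 whose groups did not overlap in batch 2. It stood at 245, 163, 126 and 216 CPM in WT and at 445, 385, 259 and 273 CPM in KO, from 82 UMIs in all of batch 2. All 4 KO libraries lay above all 4 WT ones, as for 1 of 9 members against 1.29% of genes, with 0 members lower against 2.58%. The log2 difference was 0.82 (SE 0.33, edgeR adjusted p = 0.996). The same gene differed by 0.05 in whole libraries, most of whose Col6a2 UMIs lay in tumor-like cells. The summed fibroblast markers overlapped between the groups in these cells, at 1202 to 2487 CPM in WT and 1757 to 2460 CPM in KO.

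Pericyte-like cells were compared in 4 WT and 4 KO libraries of batch 2, where 0 of 3 members passed (0% of 354 genes). Col1a1 stood at 5146, 7923, 5509 and 6669 CPM in WT and at 14006, 8692, 7841 and 11440 CPM in KO. Its log2 difference of 0.74 (SE 0.25, edgeR adjusted p = 0.157) made 1 of 3 members with an unadjusted p below 0.05, against 14.4% of genes. WT 3 lay just above KO 4, so the groups overlapped, and 0 of 3 members separated in either direction, against 2.82% of genes higher and 5.08% lower. With coarser clusters the Col1a1 difference was 0.20, and with cells of at least 500 UMIs it was 0.36. The summed pericyte markers moved in the same direction, from 3973 to 5907 CPM in WT and from 6606 to 9228 CPM in KO, and their part in the result was not tested. Col4a1 stood at 564, 570, 636 and 1143 CPM in WT and at 792, 751, 806 and 806 CPM in KO, a log2 difference of 0.08 (SE 0.29).

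Endothelial-like cells, the class with the deletion, had the fewest cells of the classes compared, with 12 to 43 cells per batch 2 library and 4 libraries per group. Col4a1 was the 1 member that passed the low-count filter, and 0 of 1 was called (0% of 284 genes) or had an unadjusted p below 0.05 (7.75% of genes). It stood at 408, 358, 396 and 1000 CPM in WT and at 912, 762, 1188 and 720 CPM in KO. The log2 difference was 0.56 (SE 0.37, edgeR adjusted p = 0.805). The groups overlapped through WT 5, without which the difference was 1.18 (adjusted p = 0.315), and separation was seen for 1.06% of genes higher and 1.76% lower. Without the filter, Col4a2 differed by -0.55 (SE 0.57) and Col18a1 by -0.52 (SE 0.62). Col4a2 stood at 136, 239, 396 and 600 CPM in WT and at 107, 424, 310 and 120 CPM in KO. These values rested on 99 Col4a1 and 35 Col4a2 UMIs in all. Myeloid-like cells had 0 members to test among 1482 genes, of which 5.47% had an unadjusted p below 0.05, and 2.16% and 2.23% had all KO libraries of batch 2 higher or lower.

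**Figure D3:**
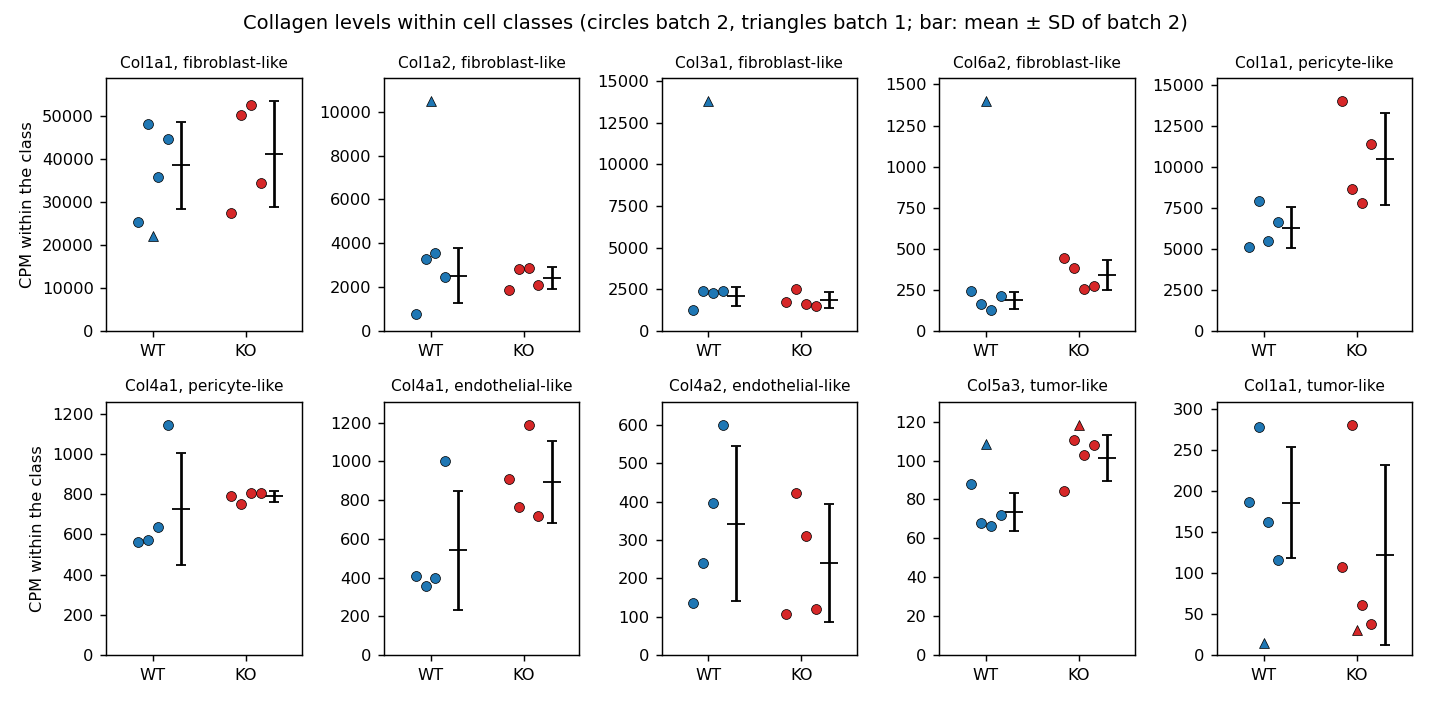
Level of selected collagens within a cell class in each library with at least 10 of its cells, in CPM of that class, with circles for batch 2, triangles for batch 1 and a bar for the batch 2 mean ± SD (n = 4 per group). Col6a2 in fibroblast-like cells is the panel where all batch 2 KO libraries, at 259 to 445 CPM, lie above the WT ones, at 126 to 245 CPM. Its batch 2 values rest on 82 UMIs.

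The shares of the source classes were compared by an exact permutation test within batches, whose smallest possible p is 0.0143 over 140 arrangements (two-sided). In WT libraries 0.961% ± 0.321 (SD, n = 5) of cells were fibroblast-like, beside 0.886% ± 0.130 (SD, n = 5) in KO libraries (exact p = 0.657). Pericyte-like cells made up 0.460% ± 0.115 and 0.475% ± 0.231 (n = 5 each, exact p = 0.83). Endothelial-like cells were at 0.329% ± 0.182 in WT and 0.517% ± 0.0965 in KO (n = 5 each, exact p = 0.0429, adjusted over the 3 classes 0.129), so none of the 3 shares passed after adjustment. With cells classed by their own markers the difference in percentage points turned negative for endothelial-like (-0.0137) and pericyte-like cells (-0.0480). Both signs rested on the batch 1 pair, with 12 WT and 8 KO endothelial-like cells and 5 and 1 pericyte-like cells. In batch 2 there were 2, 3, 2 and 5 such endothelial-like cells in WT and 7, 4, 3 and 6 in KO. Pericyte-like cells there numbered 9, 6, 5 and 9 in WT and 8, 7, 3 and 14 in KO.

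Members with and without a miR-29 seed match were set side by side in whole libraries. The median log2 difference was -0.03 over the 20 tested members with a match and 0.07 over the 9 without, both near the -0.00 of all genes. Endothelial-like cells, the class with the deletion, held 0.678% of the family's UMIs. Whole-library values therefore cannot show what happened to these mRNAs within that class, and a role of miR-29 was not tested. Col4a1, Col1a1 and Col3a1, whose sites are printed above, differed by -0.21, -0.36 and -0.40, and Col5a3 by 0.26, and none of the 4 passed the adjusted test.

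The genes that build, receive or accompany collagens were counted as a companion list of 68 (33 modifying enzymes and chaperones, 10 receptors, 15 basement membrane partners, 10 fibril proteoglycans and TGF-beta genes). None was called in whole libraries (0 of 54 tested), tumor-like cells (0 of 44), fibroblast-like cells (0 of 8) or pericyte-like cells (0 of 2), and in whole libraries 25 were higher and 29 lower in KO. Plod2, a lysyl hydroxylase for collagen cross-links, differed most by unadjusted p, at -0.48 on the log2 scale in whole libraries (SE 0.12, edgeR adjusted p = 0.450) and -0.41 in tumor-like cells (SE 0.13, adjusted p = 0.897). Tgfb2, a TGF-beta ligand, differed by -0.46 in whole libraries (SE 0.15, edgeR adjusted p = 0.462) and by -0.42 in tumor-like cells (SE 0.17), and Ctgf, a matricellular protein, by 0.79 in whole libraries (SE 0.30, edgeR adjusted p = 0.496). Lamc1, a laminin chain, differed by -0.23 in tumor-like cells (SE 0.11, edgeR adjusted p = 0.897). Without the low-count filter Plod2 was called, at -0.52 (adjusted p = 0.0211), and without KO 1 its adjusted p was 0.0526. Sparc, a collagen-binding matricellular protein, differed by 1.04 in pericyte-like cells (SE 0.35, edgeR adjusted p = 0.157), beside the Col1a1 and pericyte-marker values given for those cells. P4ha1, a prolyl hydroxylase subunit, differed by 1.16 in fibroblast-like cells (SE 0.45, edgeR adjusted p = 0.996), and Sparc there by 0.54 (SE 0.30). Itgb1, the shared chain of collagen-binding integrins, differed by 0.39 (SE 0.29) in fibroblast-like, 0.26 (SE 0.26) in pericyte-like and -0.28 (SE 0.34) in endothelial-like cells.

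**Figure D4:**
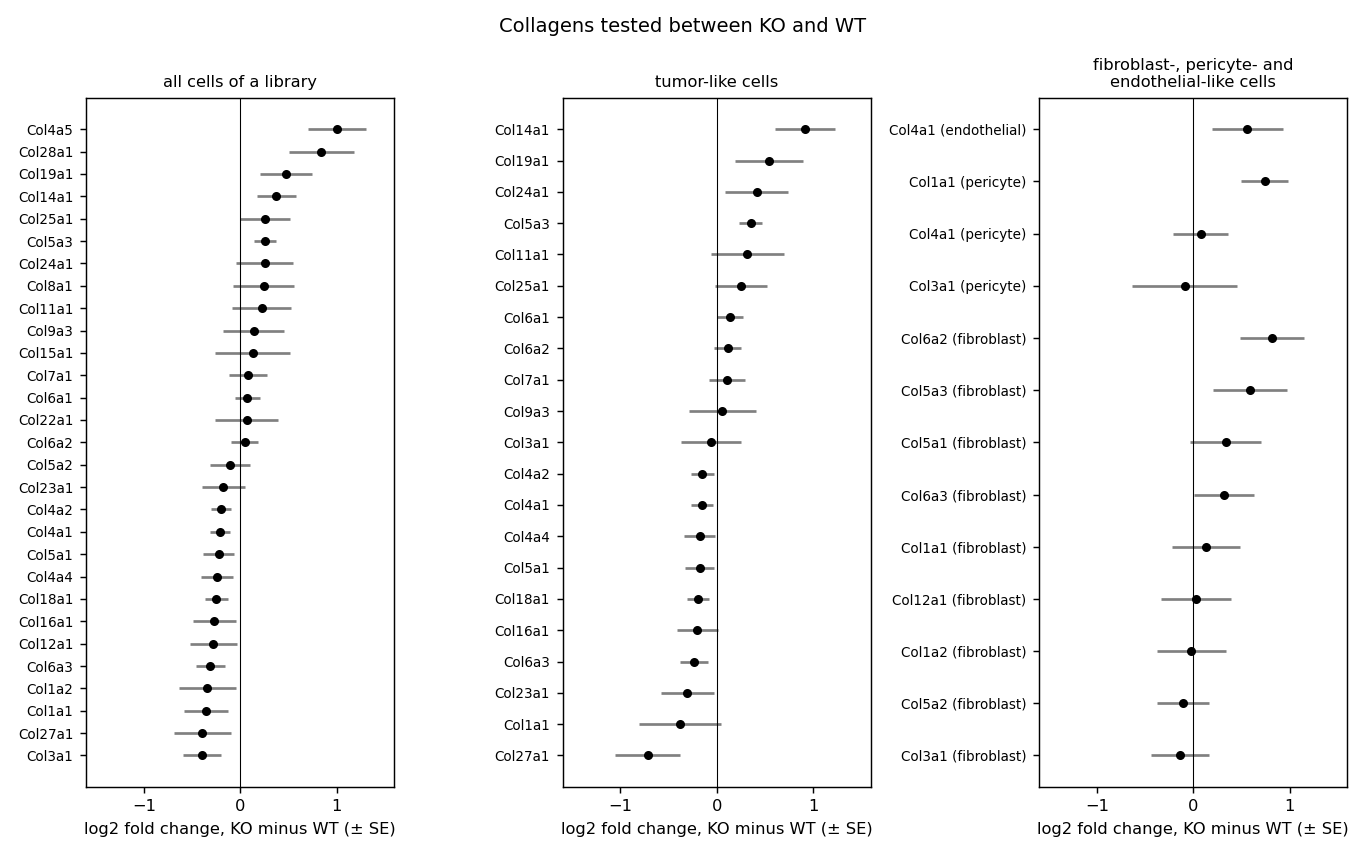
Log2 difference KO minus WT with its SE for the collagens tested in all cells (29), in tumor-like cells (21) and in fibroblast-like, pericyte-like and endothelial-like cells (13). No point passed the adjusted test, and the members lie on both sides of 0 in each panel.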

How the data were processed

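Raw gene by barcode counts of UMIs, empty droplets included, were deposited by the authors for each library. Per the labels they came from 10x 3' libraries and Cell Ranger 7.1.0 with mm10, and whether intronic reads were counted is not given in the sources used here. A barcode was kept if it showed 200 to 7000 genes and no more than 10% of its UMIs were mitochondrial, Actb was left out of totals, and no doublet caller was run. Cells were clustered after centring within batch (scanpy 1.11.5, 2000 variable genes, 30 components, Leiden) without collagens, Actb, Ago1, mitochondrial and ribosomal genes, and classes were named from marker lists. Resolution 2 was used because resolution 1, the planned setting, merged pericyte with endothelial and T with B cells. This was decided after the clusters were seen and before collagens were compared. Counts were summed per library and class (at least 10 cells) and tested with edgeR 4.0.16 (R 4.3.3; filterByExpr, TMM, batch as covariate, quasi-likelihood test, Benjamini-Hochberg adjustment at 0.05), with DESeq2 1.42.0 as an alternative. The steps were tested on simulated data. Members with at least 50 UMIs were named, and library values were given for the 10 with most UMIs and the 3 of smallest p in whole libraries, fibroblast-like and endothelial-like cells, and for companion genes the 3 of smallest p per fit. Col1a2, Col4a2, Col4a6 and Col14a1 were added after their values were seen. Members and lists were chosen with earlier results of these data known. Nothing in the labels ties same-numbered libraries, and libraries are separate tumors or pools of tumors, so p-values measure the spread between these. Upper limits for a count of 0 use 3 counts and cover counting error only.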

Additional observations from a re-analysis of the deposited data

Results flagged for a closer look

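In groups of 4 batch 2 libraries, a single library stood far from the rest in 6 of 80 groups, where chance gives about 1 in 20. Col3a1 in whole libraries was 41.8 CPM in WT 3 against 26.9 to 29.1 CPM in the other WT libraries. Col5a2 was 7.97 CPM in KO 1 against 9.26 to 9.52 CPM, and Col4a6 was 8.31 CPM in KO 1 against 2.03 to 2.96 CPM. Within fibroblast-like cells Col3a1 was 1247 CPM in WT 1 against 2273 to 2414 CPM. Within WT 5, Col4a1 was high in both vascular classes, at 1143 CPM in pericyte-like cells against 564 to 636 CPM and at 1000.2 CPM in endothelial-like cells against 358 to 408 CPM.

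Barcodes with at most 50 UMIs, which entered no comparison, held 13 of 39 members at a higher level than any named class. Col25a1 stood there at 114 CPM against at most 29.5 CPM in a class, Col24a1 at 78.3 CPM against 43.0 CPM and Col19a1 at 68.0 CPM against 15.6 CPM. The 13 genes spanned a median of 190 kb, against 106 kb for the other 26, and the part of gene length in this was not tested.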

How the results depend on the processing

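Of 885 values recomputed under alternatives, 839 kept their direction and side of the threshold, or moved by less than the spread. A collagen was called in 1 of 131 alternative fits, Col4a6 in whole libraries without the low-count filter (1 collagen and 1 companion gene, Plod2, called; 1 companion gene also without epithelial-like cells). Genes called in whole libraries went from 0 to 242 without that filter, to 203 when epithelial-like cells were also left out and to 249 when KO 1 was (both chosen after seeing the data), to 2 with DESeq2, and to 0 to 1 when each library was left out in turn. Without the filter 35 genes were called in tumor-like, 3 in fibroblast-like and 10 in myeloid-like cells, and in fibroblast-like cells 2 with DESeq2 and 2 at resolution 1. Leaving out each library in turn gave 0 to 2 genes in fibroblast-like (2 without WT 3 or KO 1), 0 to 2 in pericyte-like (2 without KO 4, 1 without WT 4 or WT 5) and 0 to 1 in endothelial-like cells (1 without WT 3). A replicate block on the shared numbers called 0 collagens and gave 1.01 for Col4a5. Same-numbered libraries correlated at -0.191 and -0.317, and differently numbered ones at 0.394 and 0.265. With 2 same-numbered pairs this cannot settle whether the numbers pair the libraries, and nothing in the labels links them.

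The share difference, KO minus WT in percentage points, turned negative for pericyte-like cells over cells outside tumor-like clusters (-0.0343) and under a marker gate (-0.0480), and for endothelial-like cells under that gate (-0.0137). Both gate values took their sign from the batch 1 pair. Leaving out each library in turn gave -0.190 to 0.0241 (positive without WT 3) for fibroblast-like cells and -0.0467 to 0.0763 (negative without WT 4, KO 2+3 or KO 5+6) for pericyte-like cells. With a marker gate the summed level was 21115 CPM in fibroblast-like cells (Col1a1 7539), from the batch 1 libraries only. It was 30742 CPM in pericyte-like cells (Col1a1 21135), from KO 5+6 only, and 3765 CPM in endothelial-like cells (Col4a1 1802), from batch 1 WT only. Fibroblast-like and pericyte-like cells thus shared no library under the gate, and their order could not be compared. At resolution 1 the median summed level was 19319 CPM in pericyte-like cells (Col1a1 12661). Log2 differences changed sign without a batch term in fibroblast-like cells (Col6a2 -1.56, Col5a3 -0.97, Col6a3 -1.56), where batch 1 has no KO library, and without pooled libraries for Col6a3 (-0.012). In whole libraries values near 0 turned for Col6a1 without a batch term (-0.0055), without pooled libraries (-0.0053) and unfiltered without KO 1 (-0.0033), and for Col6a2 without the filter (-0.00038) and unfiltered without KO 1 (-0.072). Leaving out each library in turn gave -0.034 to 0.17 for Col6a1 (negative without WT 5) and -0.060 to 0.11 for Col6a2 (negative without WT 5 or KO 1). For the other values the cause was not tested. Fits of fibroblast-like cells at resolution 0.5 and by marker gate, of pericyte-like and endothelial-like cells by marker gate and of myeloid-like cells at resolution 1 were not run, since too few libraries held 10 cells. Endothelial-like cells held 35 Col4a2 UMIs in batch 2, which limits the precision of that class.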
